A study of Mus musculus with 4 samples.

Results

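The nonclassical MHC class I genes of the H2-T block and the NKG2D-ligand gene Ulbp1 were represented by 6 H3K4me3 intervals among the 151 intervals that the authors kept as differential between CD-exposed and control ovaries. The 6 intervals were selected by position alone, as all listed intervals inside a window of 200 kb that starts at base 36000000 of chromosome 17 (4 intervals) or a window of 60 kb around the Ulbp1 start on chromosome 10 (2 intervals) of mm10. The list itself had been selected on the fold change between CD and control, so the presence of an interval in it is not a result here. H3K4me3, a histone H3 tail with 3 methyl groups on lysine 4 that is found at the starts of active genes, was measured by chromatin immunoprecipitation and sequencing in the ovaries of adult female progeny of Swiss mice. The dams of the CD group received chlordecone (CD), an organochlorine insecticide, in olive oil by gavage (100 µg/kg daily, E6.5 to E15.5), and those of the control group received the same volume of 150 µl of oil. There were 2 CD and 2 control samples, each made from 2 ovaries of different animals. The deposited list holds 1 row per interval and no value per sample, so no level, spread or test per interval can be given, and the depth of each sample is unknown. The whole ovary was used, so that a difference in the number of marked cells and a difference in the mark per cell cannot be told apart.

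MHC class I molecules hold a short peptide or another ligand in a groove formed by their α1 and α2 domains and present it to T cells and natural killer cells. The nonclassical members vary little between individuals and have special ligands or receptors. H2-T23 encodes Qa-1, which presents leader peptides of classical class I molecules to the CD94 and NKG2A receptor of natural killer cells, while the products of H2-T22 and H2-T10 are recognised by γδ T cells. Ulbp1 encodes MULT1, a class I-like surface protein that binds the activating receptor NKG2D (Klrk1). The family arose by repeated duplication, so its members share long stretches of sequence, and a short sequencing read from such a stretch fits more than 1 gene.

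All 4 intervals of the H2-T block lay at class I genes of the minus strand, and 5 of the 6 intervals were at most 1 kb from an annotated start of a protein-coding gene. That count was 3 within 500 bp and 2 with the start inside the interval. The gene models with the intervals show their order along each gene. At H2-T23, the interval chr17:36031753-36031879 was 127 bp wide and lay 976 bp downstream of the start of H2-T23-201, the full-length coding transcript. All of its 127 bases were coding bases of exon 3 of 7, the exon that encodes the α2 domain. Starts of shorter retained-intron transcripts of H2-T23 lay between 662 and 851 bp away, and no start lay inside the interval. The antisense gene A930015D03Rik spans the interval with an intron.

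At H2-T22, the interval chr17:36042188-36042522 was 335 bp wide and began 225 bp downstream of the outermost start at 36042747. It covered the first 85 coding bases of H2-T22-203 with 96 untranslated bases before them and 154 intron bases after them. The start of the retained-intron transcript H2-T22-204 at 36042500 was the single H2-T22 start inside it. Gm6034, a class I-like gene on the plus strand, starts 214 bp from the outermost H2-T22 start, and the interval lay 439 bp from the Gm6034 start, on the H2-T22 side.

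At H2-T10, the interval chr17:36120888-36120984 was 97 bp wide and lay 165 bp downstream of the start of H2-T10-201, its coding transcript, and 481 bp downstream of the outermost start. GENCODE classes H2-T10 as a polymorphic pseudogene, which is a gene that is intact in some strains and not in others. All 97 bases fell in an intron of H2-T10-201 and in exon 1 of the retained-intron transcript H2-T10-203. The nearest start of a gene classed as protein-coding was that of Gm19684 on the other strand, 694 bp away. The long protein-coding gene model Gm7030 spans the interval with an intron. The starts of H2-T10 and Gm19684 were 213 bp apart.

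The last interval of the block, chr17:36167486-36168446, was the widest of the 6 at 961 bp. It did not lie at a gene with an H2-T name but at the class I-like gene Gm8909, 91 bp downstream of its outermost start at 36168537, and it covered 592 coding bases of Gm8909-203 in exons 1 to 3. The starts of the shorter noncoding transcripts Gm8909-204 at 36167887 and Gm8909-205 at 36167844 lay inside it, as did that of the antisense gene Gm20478 at 36167982. Strand is not recorded in ChIP-seq, so an interval over overlapping genes cannot be assigned to 1 of them.

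On chromosome 10, the near interval chr10:7474111-7474280 was 170 bp wide and lay 473 bp upstream of the outermost Ulbp1 start at 7473638. The far interval chr10:7492237-7492380 was 144 bp wide and lay 18599 bp upstream of that start, which was still the nearest annotated start of any GENCODE gene. RefSeq places it within the lncRNA Gm40597, 935 bp from its end, and a RefSeq promoter entry of Gm40597 at chr10:7496595-7496894 puts a start of that gene nearer to the interval than the Ulbp1 start. Neither interval overlapped the Ulbp1 gene itself, and they were 17956 bp apart.

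**Figure D1:**
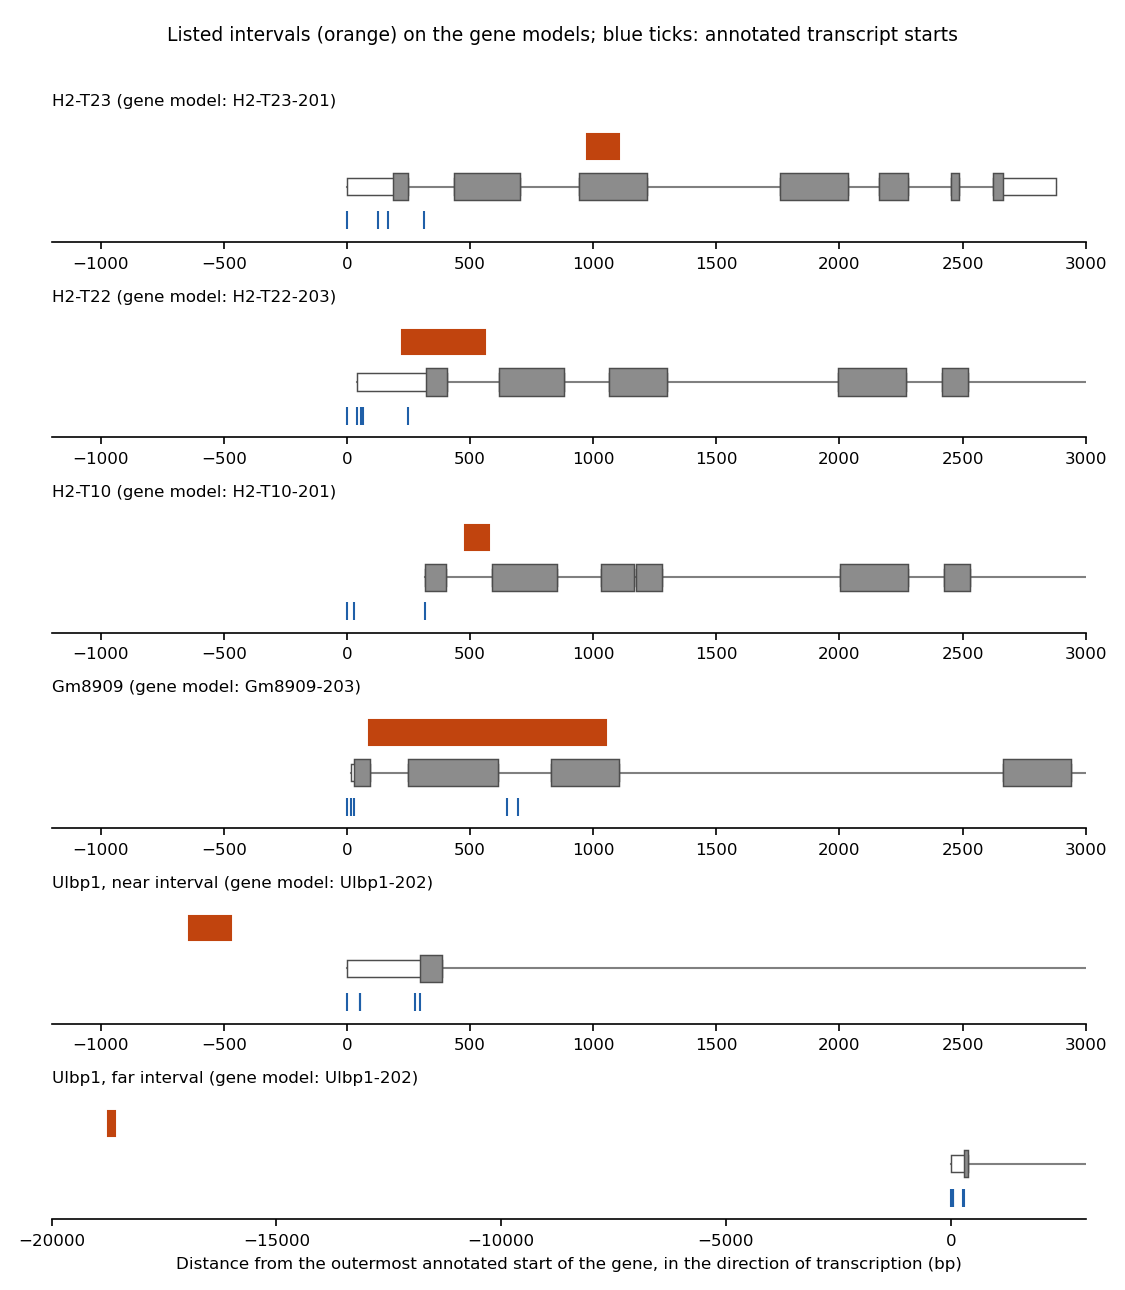
Positions of the 6 intervals (orange) along their genes, in bp from the outermost annotated start in the direction of transcription (grey boxes, coding exons; white boxes, untranslated exon parts; blue ticks, annotated transcript starts). The 4 intervals of the H2-T block lie 91 to 976 bp after that start and the Ulbp1 intervals lie 473 and 18599 bp before it.

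The windows were not close to any threshold. The nearest listed intervals outside the chromosome 17 window were at Glp1r, 5097768 bp before it, and near Slc22a7, 10261090 bp after it, and the first listed interval after the chromosome 10 window was 1038762 bp away, with Ust as its nearest gene. No listed interval precedes the chromosome 10 window. Inside, the intervals closest to the limits were those of Gm8909, at 31554 bp, and the far Ulbp1 interval, at 17620 bp.

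The intervals at H2-T22 and H2-T10 overlapped in part when 1 of these 2 near-identical genes was laid on the other. The coding sequences of H2-T22 and H2-T10 were identical at 96.9% of 1134 aligned bases, and the H2-T22 gene with its introns at 97.4% of 5500 aligned bases. The window of the H2-T22 interval with 250 bp on each side had a single copy at an identity of at least 90%, which was H2-T10 (94.7%), and the H2-T10 window had a single such copy, which was H2-T22 (94.9%). These 2 window values count gap positions as differences, unlike the values over aligned bases. Over aligned bases, the H2-T22 interval itself was identical to H2-T10 at 99.0%. Placed on H2-T10 by alignment, the H2-T22 interval ran over chr17:36120936-36121245 and overlapped the listed H2-T10 interval by 49 bases. These sequences are shown because they hold the coding and intron part of the H2-T22 interval, the 49 bases by which the intervals overlap, and the place where the genes differ. Both are written on the minus strand from the start codon, and capitals mark bases that differ or have no partner in the other gene.
H2-T22, chr17:36042188-36042426: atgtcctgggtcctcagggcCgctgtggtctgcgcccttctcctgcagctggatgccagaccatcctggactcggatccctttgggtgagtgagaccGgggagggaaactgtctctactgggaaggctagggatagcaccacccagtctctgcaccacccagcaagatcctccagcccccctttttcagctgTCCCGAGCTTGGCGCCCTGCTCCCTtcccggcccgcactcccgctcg
H2-T10, chr17:36120936-36121149: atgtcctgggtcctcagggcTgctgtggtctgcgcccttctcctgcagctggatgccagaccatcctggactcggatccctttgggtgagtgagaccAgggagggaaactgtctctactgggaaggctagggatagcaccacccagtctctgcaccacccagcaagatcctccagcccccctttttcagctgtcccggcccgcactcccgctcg
Over these 239 bases of H2-T22, 212 of 214 aligned bases were identical, and 25 bases of H2-T22 had no partner in H2-T10.

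The listed H2-T10 interval lay across that same gap. The next pair shows the H2-T10 interval and its H2-T22 counterpart, with capitals as before.
H2-T10, chr17:36120888-36120984: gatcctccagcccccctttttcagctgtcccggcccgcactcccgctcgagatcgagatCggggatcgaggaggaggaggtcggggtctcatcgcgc
H2-T22, chr17:36042141-36042261: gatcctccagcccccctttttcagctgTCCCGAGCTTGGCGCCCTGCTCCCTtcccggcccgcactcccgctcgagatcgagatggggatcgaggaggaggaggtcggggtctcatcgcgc
All 96 aligned bases were identical, and the pair differed by the 25 bases that H2-T22 has in addition and by 1 base that H2-T10 has in addition. Each of the 48 stretches of 50 bases (50-mers, the length of the reads) inside the H2-T10 interval held the place of the 25 bases or the additional base: 27 held the former, 38 the latter. None of the 48 was found elsewhere in the genome with up to 2 mismatches. In the 1 kb on both sides, 32.4% of 50-mers were found elsewhere exactly and 75.4% with up to 2 mismatches.

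The H2-T22 interval, by contrast, held 113 of 286 50-mers (39.5%) that occur exactly elsewhere, and with up to 1 mismatch the share was 85.7%. H2-T10 was the gene in which all of these matches fell. The interval was the member with the highest share, and the H2-T10 interval was at 0% at each number of mismatches tried.

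**Figure D2:**
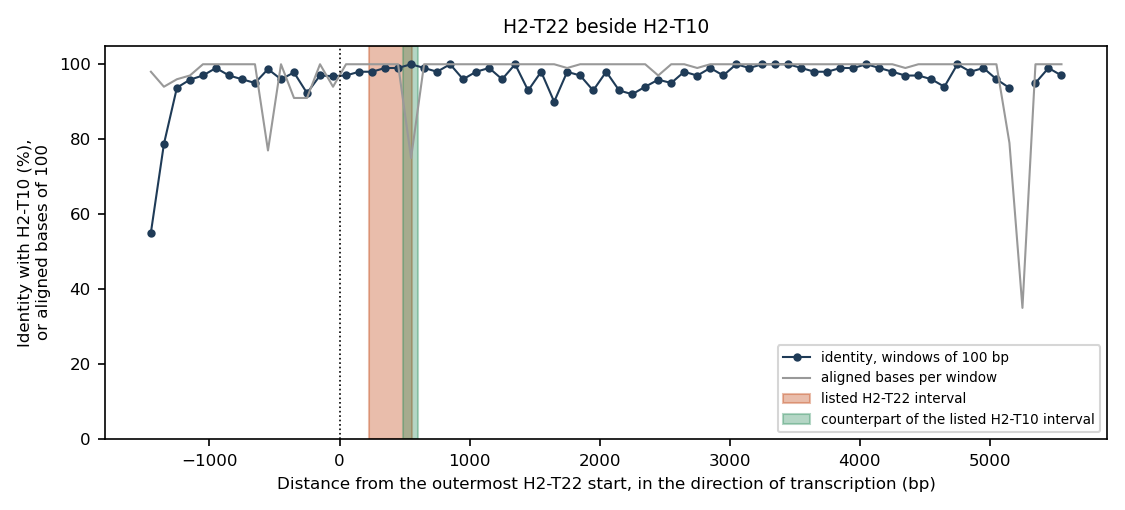
Identity of H2-T22 with H2-T10 in windows of 100 bp (points, %) and the number of bases of each window that could be aligned (grey line), against distance from the outermost H2-T22 start in bp. The H2-T22 interval (orange) spans 225 to 559 bp and the counterpart of the H2-T10 interval (green) 486 to 606 bp, where the grey line drops to 75 aligned bases while the identity is 100%.

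The interval at H2-T23 had its closest copy in H2-T-ps, a class I pseudogene of the same block. The window with flanks was identical at 90.9%, and the interval itself at 118 of 127 bases (92.9%). The pair is shown because the differing bases crowd in the later part of the interval.
H2-T23, chr17:36031753-36031879: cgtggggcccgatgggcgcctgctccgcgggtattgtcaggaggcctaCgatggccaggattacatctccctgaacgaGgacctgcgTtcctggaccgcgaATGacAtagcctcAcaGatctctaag
H2-T-ps, chr17:36110783-36110909: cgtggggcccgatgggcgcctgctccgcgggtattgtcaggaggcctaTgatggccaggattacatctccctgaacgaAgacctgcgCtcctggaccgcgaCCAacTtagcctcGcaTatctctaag
No 50-mer of the H2-T23 interval was found elsewhere exactly (0 of 78), 29 (37.2%) were found with up to 1 mismatch and 41 (52.6%) with up to 2. All of these matches fell in H2-T-ps. The upstream edge of the interval lay 1 bp from the place where 50-mers found elsewhere exactly gave way to 50-mers without an exact match elsewhere.

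The Gm8909 interval resembled many class I genes, and none of them closely. It had no copy at an identity of at least 90%. At 80% or more it had 5, in Gm10499 (84.3%), H2-Bl (83.2%), H2-Q2 (80.8%), the classical gene H2-D1 (80.5%) and H2-Q10 (80.2%). Of its 912 50-mers, 69 (7.57%) were found elsewhere exactly and 28.9% with up to 2 mismatches. The exact matches fell in H2-Q7 (46 50-mers), Gm10499 (20) and H2-D1 (3), and those with up to 2 mismatches also in further genes such as H2-Q5, H2-K2, H2-T23 and H2-Bl. The longest run shared without a mismatch was 78 coding bases of exon 2, the exon of the α1 domain, which are also found in exon 2 of H2-Q7. It is shown with 15 bases on each side, with the shared run in capitals, on the minus strand.
Gm8909, chr17:36168071-36168178: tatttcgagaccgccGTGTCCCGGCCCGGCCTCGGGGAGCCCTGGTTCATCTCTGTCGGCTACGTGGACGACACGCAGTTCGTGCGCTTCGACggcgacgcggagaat
Further exact runs were 69 bases shared with Gm10499, 66 bases shared with H2-Q7 and 52 bases shared with H2-D1.

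Coding sequences were compared among 12 class I genes, which did not include Gm10499, H2-Q2 or H2-T-ps. Among these, Gm8909 was closest to H2-D1 (89.8%) and H2-Q7 (89.7%), and H2-T23 was closest to Gm8909 (84.3%) and H2-Q7 (84.2%). H2-T22 and H2-T10 were identical to the 10 other class I genes compared at 73.4% to 79.3%. The NKG2D-ligand genes Ulbp1, Raet1e and H60b, gave values near the lowest of the class I pairs when aligned in the same way: Ulbp1 and H2-T23 were identical at 68.8% of aligned bases, and Ulbp1 and H60b at 72.9%, while H2-T24 and H2-Bl, the lowest class I pair, were identical at 69.0%.

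**Figure D3:**
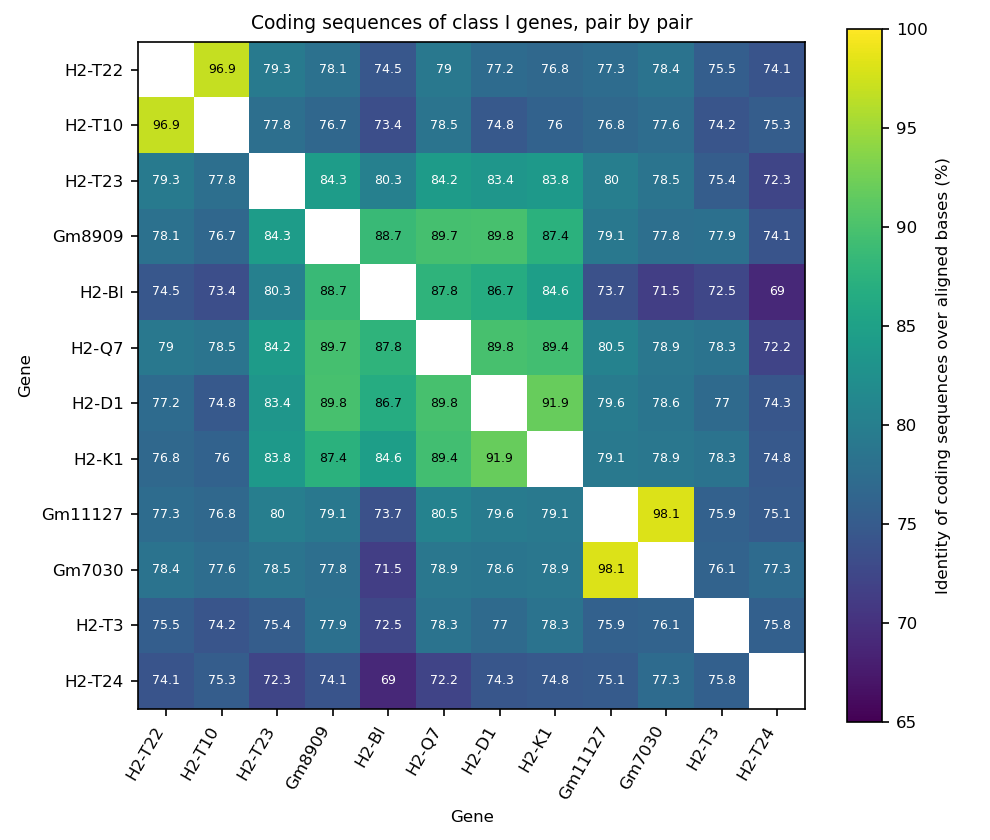
Identity (%) of the coding sequences of 12 class I genes, pair by pair, over the bases that could be aligned; the longest coding transcript of each gene was used. H2-T22 and H2-T10 form a pair at 96.9%, and Gm8909 lies with H2-Q7, H2-D1, H2-K1 and H2-Bl.

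Both Ulbp1 intervals had copies on the same chromosome within the cluster that holds the NKG2D-ligand genes Raet1e and H60b. The NKG2D-ligand gene H60c lies outside that cluster, with a start 4206340 bp from the near Ulbp1 interval. The near interval with its flanks had 5 copies at an identity of at least 90%, each covering 86.3% of the window. The closest (94.5%) began at 3237191, 2158 bp from the gene model Gm6667, and the other 4 lay between 22202366 and 22413897, where the annotated genes H60b and Raet1e span 2 of them. The far interval had 2 copies, both at 90.6%, 1 within H60b and Raet1e and 1 within Gm10825. In the 2 sequence pairs below, capitals mark the bases that differ or lack a partner, and the strands run in the same sense as Ulbp1.
Ulbp1 near interval, chr10:7474111-7474280: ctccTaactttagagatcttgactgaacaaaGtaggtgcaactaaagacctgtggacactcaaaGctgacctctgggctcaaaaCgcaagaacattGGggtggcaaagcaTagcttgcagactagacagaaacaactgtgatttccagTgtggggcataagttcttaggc
Its copy at H60b and Raet1e, chr10:22223239-22223413: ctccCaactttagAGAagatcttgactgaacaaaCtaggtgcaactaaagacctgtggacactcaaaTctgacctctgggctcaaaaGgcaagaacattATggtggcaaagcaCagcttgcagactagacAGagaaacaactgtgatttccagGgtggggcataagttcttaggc
Ulbp1 far interval, chr10:7492237-7492380: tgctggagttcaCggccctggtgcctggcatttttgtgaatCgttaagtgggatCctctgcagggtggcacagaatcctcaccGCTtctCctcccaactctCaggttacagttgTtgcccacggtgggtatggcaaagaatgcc
Its copy at H60b and Raet1e, chr10:22212705-22212845: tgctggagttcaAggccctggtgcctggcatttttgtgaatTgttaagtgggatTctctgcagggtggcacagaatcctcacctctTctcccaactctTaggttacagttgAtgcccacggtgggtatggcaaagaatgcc
The near interval was identical to this copy at 162 of 170 bases, and the copy held 5 further bases. The far interval was identical at 135 of 141 aligned bases and held 3 bases without a partner.

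Neither Ulbp1 interval held a 50-mer that occurs exactly elsewhere (0 of 121 and 0 of 95), and with up to 2 mismatches the shares were 28.9% and 32.6%. Their surroundings did: in the 1 kb on both sides, 55.4% of 50-mers around the near interval and 36.1% around the far interval were found elsewhere exactly. Both intervals lay on stretches where this locus differs from its copies. The same held for H2-T23 (0% inside against 30.2% in the flanks), H2-T10 (0% against 32.4%) and Gm8909 (7.57% against 43.4%), and H2-T22 was the exception (39.5% against 31.2%).

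**Figure D4:**
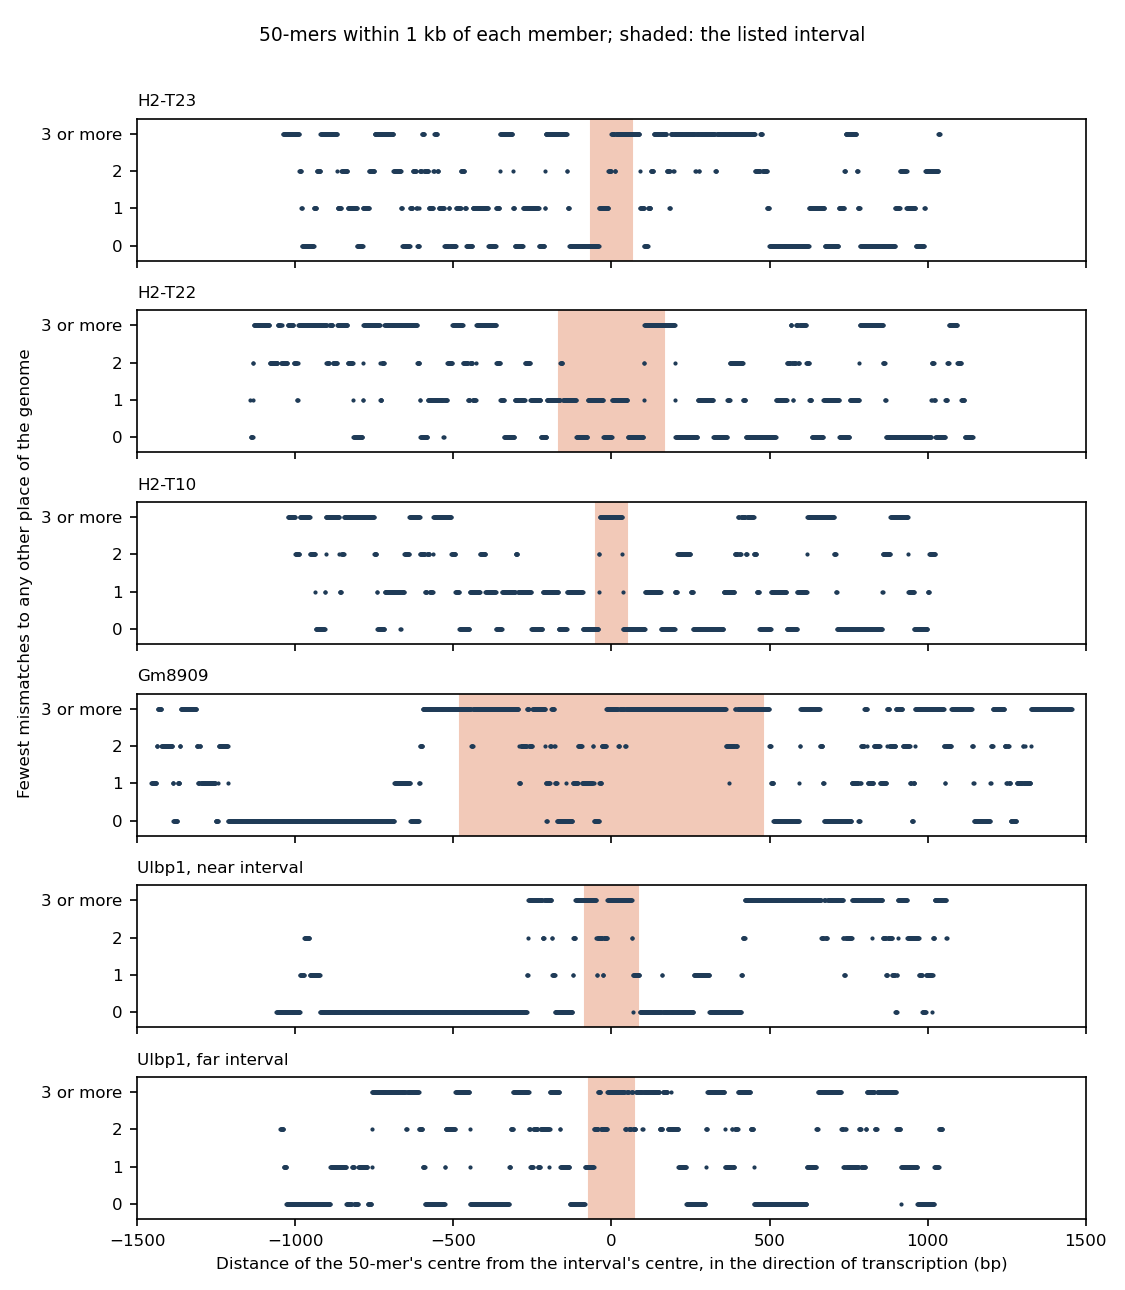
Fewest mismatches between each 50-mer and any other place of the genome, against the distance of the 50-mer from the centre of the interval in bp, for the 6 intervals with 1 kb on both sides; the intervals are shaded. In the H2-T10 panel all 50-mers wholly inside the shaded interval are at 3 or more mismatches, with exact matches just outside on both sides.

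This arrangement was common in the whole list. With 250 bp on both sides added, the share of 50-mers found elsewhere exactly was higher than inside the interval alone for 5 of the 6 members and for 124 of the 145 other intervals (85.5%). Edges of the other intervals lay within 10 bp of a place where 50-mers change between having and lacking an exact match elsewhere in 114 of 290 cases (39.3%), against 2 of 12 edges of the members. Those 2 were the upstream edge of H2-T23 and the downstream edge of the near Ulbp1 interval, at 7 bp. For H2-T10 the run of 50-mers without an exact match elsewhere reached 17 bp past the upstream edge and 12 bp past the downstream edge. How reads with several matching places were treated is not given in the sources used here, and the part that it plays in any interval was not tested.

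Set beside the other 145 intervals, the members differed in their distance to gene starts, which the choice of windows around named genes partly fixes. They also differed in the share of 50-mers found elsewhere with mismatches allowed. Protein-coding starts were found within 1 kb for 5 of 6 members (83.3%) and for 47 of 145 others (32.4%), and the median distance was 568 bp against 7440 bp. A copy at 90% identity was found for 5 of 6 members and 90 of 145 others (62.1%). The count of members was 4 with the interval alone, 0 at an identity of 95% and 6 at 80%. The median share of 50-mers found elsewhere with up to 2 mismatches was 30.8% in the members and 69.9% in the others. With up to 1 mismatch the medians were 10.5% in the members and 35.3% in the others. The members had a median width of 157 bp (others 131 bp) and a median GC content of 59.6% (others 51.8%), from 45.9% in the near Ulbp1 interval to 67.3% in Gm8909. Gm8909 held 96 CpG dinucleotides, a ratio of observed to expected CpG of 0.888, and the near Ulbp1 interval held 1, a ratio of 0.112. At most 6.57% of a member's bases were marked as repeats in the assembly (H2-T22), against a median of 10.2% in the others. These are descriptions of chosen intervals and carry no test.

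**Figure D5:**
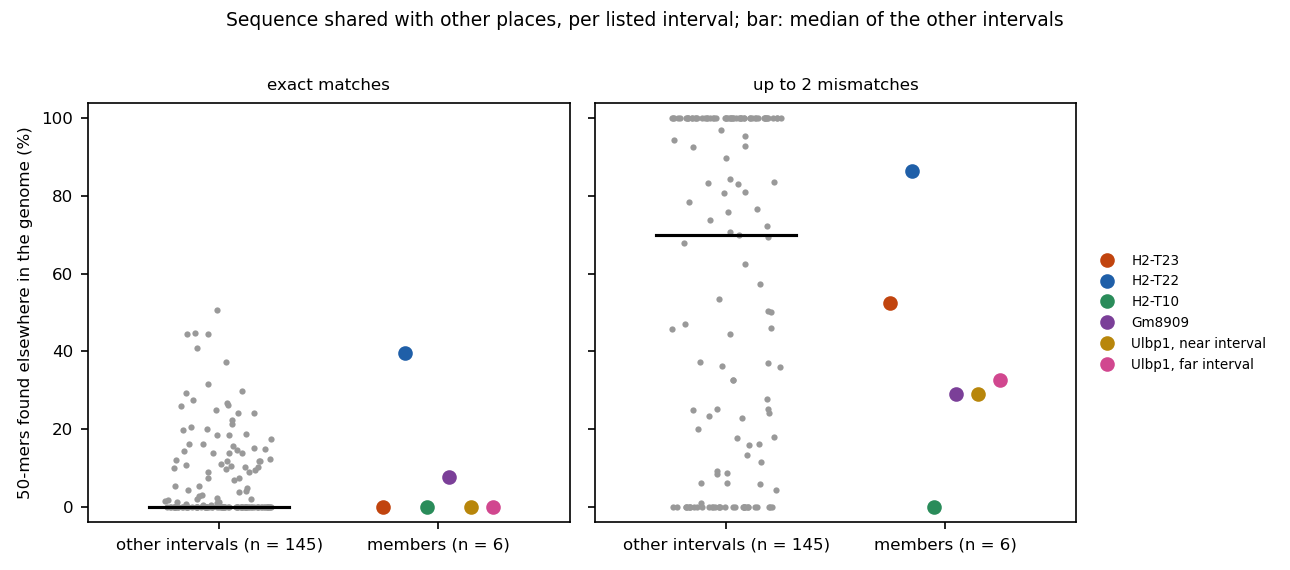
Share of the 50-mers of each listed interval that occur elsewhere in the genome (%), exactly (left) and with up to 2 mismatches (right), for the 145 other intervals (grey; bar, median) and the 6 members (coloured). H2-T22 is the highest member in both panels, at 39.5% and 86.4%, and the other members lie below the median of the other intervals at up to 2 mismatches.

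Listed intervals within 10 kb of a start were rare among all genes: 81 of 21924 protein-coding genes had one (0.369%), so that a count of 0 in a short gene list is no result about that list. Of 24 listed class I-like genes, 23 were in the annotation, and 6 had an interval within 10 kb of a start: H2-T10, H2-T22, H2-T23, Gm8909, Gm6034 and Gm7030, the last at 8441 bp. All 6 were counted through member intervals, so the choice of windows fixed this count. Gm6034 shares its interval with H2-T22, and Gm7030 shares its interval with H2-T10. No interval lay within 100 kb of a start of the classical genes H2-K1 and H2-D1, a distance at which 1.70% of all protein-coding genes had one. Among the 5 NKG2D-ligand genes in the annotation, Ulbp1 and H60b had an interval within 1 kb, with a start of H60b inside chr10:22273153-22274656, and Raet1e had chr10:22150038-22150137 at 8432 bp. No copy of a Ulbp1 interval lay under a listed interval, whereas the copy of each of H2-T22 and H2-T10 lay under the other's interval. Within 10 kb, 0 of 8 receptor genes (Klrk1 and Klrd1 among them), 0 of 10 genes of peptide loading (such as B2m, Tap1 and Tapbp) and 0 of 6 regulators (such as Nlrc5, the class I transactivator, and Irf1) had an interval, and Erap1, the peptide-trimming enzyme, had the nearest at 48267 bp. The same count was 0 of 9 for ovary markers such as Foxl2, Amh and Zp3, and 0 of 8 for leukocyte markers such as Ptprc and Cd3e. The list holds differential intervals alone, so a gene without an interval may still carry the mark, and the cell types in the samples cannot be checked from it.

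Short motifs of class I and general promoters, 5 in all, were looked up in RefSeq promoter sequences (GRCm38.p6), which reach from 250 bases before to 50 bases after a start. Entries existed for H2-T23, H2-T22, Gm8909 and Ulbp1; H2-T10 had none. The core of the interferon-stimulated response element (ISRE), GAAANNGAA on either strand, occurred in the promoters of H2-T23 and H2-T22 and in 8.56% of all 32851 promoters. Both sites are shown on the gene strand, with the core in capitals as its other strand, TTCNNTTTC.
H2-T23, chr17:36032806-36032834: tcctactgctTTCTCTTTCataaagacac
H2-T22, chr17:36042914-36042942: ttggcttagtTTCACTTTCgaatccccaa
The core began 123 bases before the RefSeq start of H2-T23 and 190 bases before that of H2-T22, and the H2-T22 site also lies in the promoter entry of Gm6034 on the other strand. CCAAT occurred in all 4 promoters (37.4% of all promoters) and TGACG in those of H2-T22 and Ulbp1 (20.8%). TATAAA occurred in that of Gm8909 (13.6%), and GGGNNTTCC in none of the 4 (5.82%). No motif site overlapped another in these promoters. Neither the H2-T23 nor the H2-T22 interval reached the ISRE core of its promoter. The RefSeq start of H2-T23 lies downstream of the outermost GENCODE start, so its core falls before the former and after the latter. A match of letters is a description and not a bound site.

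The reference genome is from C57BL/6J, whereas the samples are labelled as Swiss, and the class I genes differ between strains. The assembly also holds sequence of this region from the NOD/ShiLtJ strain, in which the best match to the windows with 250 bp flanks was 95.5% for H2-T23, 96.8% for H2-T22, 92.6% for H2-T10 and 85.7% for Gm8909. In the sequence from 129S1/SvImJ the values were 90.9% for H2-T23, 94.4% for H2-T22, 99.8% for H2-T10 and 85.4% for Gm8909. That from 129X1/SvJ matched the Gm8909 window at 80.8%. The best match may be to a different family member where the strain's sequence does not hold the gene. The 129S1/SvImJ value for H2-T23 equals the identity of that window with H2-T-ps (90.9%). The 129X1/SvJ value equals the identity of the Gm8909 window with H2-Q2 (80.8%). These values are therefore no measure of divergence between strains. The effect of strain differences on the mapping of reads from Swiss mice was not tested.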

How the data were processed

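H3K4me3 ChIP-seq was performed in 2 CD and 2 control ovary samples, sequenced in single-end reads of 50 bases. Per the labels and the study's methods, the authors demultiplexed with bcl2fastq 2.17.1.14, mapped reads to mm10 with Bowtie 1.0.0 (seed length 40), called peaks with MACS2 2.1.1 (shift size 73 bp, no model, p threshold 1e-05) against input, and compared groups with limma. The deposited list holds interval limits, counted from 0, and a signed fold change of CD against control. That fold change is the authors' own comparison and was not used or printed. No column held values of single samples.

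Limits were written counted from 1. Intervals were placed on GENCODE M21 and RefSeq, both on GRCm38.p6, the assembly of mm10. Every 50-mer was searched for in both orientations on the chromosomes and unplaced contigs, without gaps. Copies were found with BLAST+ 2.17.0, and were counted where 80% or more of the interval with 250 bp flanks aligned at 90% identity or more. Gap positions counted as differences in the identity of copies, but not in that of pairs. Pairs were aligned with Biopython 1.88. On simulated data, 300 of 300 50-mers received the right number of mismatches, 50 of 50 planted close copies were called, while 0 of 50 distant copies and 0 of 100 copy-free windows were. Groups were not tested, as no value per sample is given.

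The genes named are those with a start within 1 kb of a member or overlapping it, those holding its closest copies, and those of the gene lists within 10 kb of a listed interval. Members, gene lists and motifs were chosen with earlier results of these data known. The flanks of 1 kb and the comparison of interval edges were chosen after the values were seen, as were other genes given as the closest by sequence, as examples of a gene list or as nearest to the first listed intervals outside the windows.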

Additional observations from a re-analysis of the deposited data

How the results depend on the processing

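The number of intervals in the windows remained 6 when any overlap counted and when the windows were widened by 100 kb or 1 Mb. A protein-coding start lay within 5 kb or, with all genes or outermost starts alone, within 1 kb of 5 members, against 3 within 500 bp and 2 with the start inside. A near-identical copy was found for 5 members, for 0 at an identity of 95%, for 6 at 80%, and for 4 with the interval alone or 500 bp flanks. With 250 bp flanks the GC content of H2-T10 was 56.8% in place of 67.0%, and that of H2-T23 55.5% in place of 60.6%; the binomial limits used for this comparison are wide in intervals this short. For the share of 50-mers found elsewhere, up to 2 mismatches gave 28.9% (near Ulbp1), 32.6% (far Ulbp1), 52.6% (H2-T23), 86.4% (H2-T22) and 28.9% (Gm8909), and up to 1 mismatch gave 4.13%, 37.2%, 85.7% and 16.8% for near Ulbp1, H2-T23, H2-T22 and Gm8909. Matches of 40 bases gave 10.2% (H2-T23), 48.3% (H2-T22) and 10.8% (Gm8909), and matches of 36 bases gave 5.19% (near Ulbp1), 14.1%, 51.7% and 12.3%. Flanks of 250 bp gave 43.5% (near Ulbp1), 18.3% (far Ulbp1), 23.01% (H2-T23), 44.3% (H2-T10) and 16.4% (Gm8909). Flanks of 1 kb, chosen after seeing the data, gave 50.7%, 33.4%, 29.9%, 33.4% and 30.7% for the same 5 and 30.9% for H2-T22. Of the 54 annotated pathway genes, 9 had an interval within 10 kb of a start, 7 within 1 kb and 15 within 100 kb, beside 0.369%, 0.228% and 1.70% of all protein-coding genes; the window rule chose the interval of 7 of the 9. In the intervals in place of the promoters of the 4 genes, the ISRE core occurred in 0 (2 promoters), CCAAT in 2 (4 promoters) and TGACG in 0 (2 promoters). In all, 27 of 61 alternatives left a value within its limits, and 34 moved it. For the shares of 50-mers these limits were binomial and treated overlapping 50-mers as independent, which they are not. The tally is thus a description and no measure of sampling error. Without values per sample, neither depth nor replicate error could be weighed. No paired analysis was possible because the deposited list holds no value per sample.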
